A study of Mus musculus with 46 samples.

Results

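The genes described here are 10 mouse genes of the piRNA pathway and the Tudor family: Tdrd1, Tdrkh, Tdrd3, Tdrd7, Tdrd5, Tdrd9, Piwil4, Piwil2, Mael and Pld6. They were chosen by name and from their levels in the libraries described below, in order to set Tdrd1 beside Piwil4 and beside Tudor genes that many tissues express. Their levels and differences are therefore a description, with no p-value; the number of them called in fits over all genes is given beside the share of all genes called, and supports nothing. Of the 10 genes, 8 are listed in the table of thyroid tumour cell lines and 6 in the table of the Max addback experiment, among 14888 genes listed in either table. Piwil2 and Mael are listed in neither table, and Tdrd5 and Tdrd9 only in that of the lines.

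PIWI proteins are Argonaute family proteins that bind piRNAs, small RNAs best known for silencing transposons in the germ line. Long precursor transcripts are cut at the mitochondrial surface, loaded into a PIWI protein, trimmed and methylated at their 3′ end. Tudor domains bind methylated arginines or lysines, and many Tudor proteins of the pathway hold PIWI proteins by methylated arginines and so build the granules in which piRNAs are made. In mice most of these genes are known from fetal and adult testis, while some Tudor genes are expressed in many tissues. MYC proteins, and repressors such as MGA, bind DNA as pairs with MAX, and a Polycomb complex that contains MGA and MAX, PRC1.6, is known for silencing germline genes in mouse cells outside the germ line.

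RNA sequencing was done on cells grown from thyroid tumours of mice with conditional mutations that a Cre switched on by tamoxifen recombined in neuroendocrine cells. The 4 RPM lines are Rb/p53/Max mutant, and the 4 RP lines are Rb/p53 mutant. In the addback experiment, Rb/p53/Max mutant cells were transduced with a vector that expresses Max (Max addback, 3 libraries) or with an empty vector (3 libraries). Every group thus carries the Rb and p53 mutations, and by their library names all 6 libraries of the addback experiment are of the line of RPM replicate 2. The labels do not say whether the 3 libraries of a group are separate cultures or transductions, so the spread within a group may be technical. No source used here gives the ages of the mice. The other 32 of the 46 libraries of the series, from thyroid and pituitary tumours, were not analysed here.

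Each library held 6738614 to 8498396 reads over the listed genes. Levels are given in counts scaled to library size (CPM), as normalised by the authors, or in RPKM, which is also divided by gene length, where genes are set against each other. In CPM, 3 reads are worth 0.353 to 0.458, and values at or under this are near the limit of detection. Max RNA was present in RPM lines, at 68.9 to 103 CPM, against 44.7 to 65.2 CPM in RP lines. A total over the whole gene can include transcripts of a recombined allele, so it does not check the deletion. With addback Max reached 220 to 251 CPM, against 83.1 to 96.0 CPM with empty vector.

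Some libraries stand apart in ways that the groups do not name. The 3 addback libraries had no read of the Y-linked gene Ddx3y, against 157 to 177 CPM in empty vector libraries and 125 CPM in RPM replicate 2, so Max expression and any other difference between the transduced cells cannot be told apart. The Y-linked genes Eif2s3y, Kdm5d and Uty likewise averaged 0, 0.04 and 0.09 CPM with addback, against 120, 65.9 and 64.4 CPM with empty vector. Both groups of lines varied in sex-linked RNA: Ddx3y ran from 0 to 125 CPM in RPM lines and from 0 to 66.7 CPM in RP lines. Xist ran from 0.383 to 1958 CPM in RPM lines and from 0.366 to 5042 CPM in RP lines. RP replicate 4 held both Ddx3y, at 53.3 CPM, and Xist, at 344 CPM. The animal identifier of RPM replicate 1 also occurs on tumours labelled Rb/p53 mutant. Of 9 C cell markers, such as Calca, Chga and Ret, all 9 were listed, with sums of 3112 to 15571 CPM in RPM lines, against 3526 to 4721 CPM in RP lines, and 4988 to 5754 CPM with addback, against 3937 to 4145 CPM with empty vector. Calca makes up much of the sum and was not called in either comparison by limma-trend, described below, but the 8 other C cell markers were all called higher with addback, among them Calcb at 38.6 against 2.68 CPM, Chgb at 621 against 129 CPM and Chga at 761 against 290 CPM with empty vector, while none of the 9 was called in the lines. The authors' deposited table, by contrast, calls Calca higher in RPM lines (log2 2.07, FDR 1.44e-07), and none of the 8 others there. The defining thyroid follicle genes Tg and Tshr were not listed. Of 12 germ cell markers 4 were listed (Sycp1, Zbtb16, Dnd1 and Nanos3), with sums of 11.4 to 19.8 CPM in RPM lines, against 7.22 to 13.9 CPM in RP lines, and 9.38 to 18.7 CPM with addback, against 15.0 to 19.4 CPM with empty vector, while Ddx4, Dazl and Dppa3 were not listed. Limma-trend called none of these 4 in either comparison. With addback Sycp1 averaged 7.70 CPM, against 11.7 CPM with empty vector, and Zbtb16 3.45 against 1.78 CPM. The authors' deposited table calls Sycp1 lower (FDR 0.00346) and Zbtb16 higher (FDR 0.00705) with addback, and neither Dnd1 nor Nanos3. The sum of the 3 listed of 7 fibroblast markers was 17.6 to 59.7 CPM in RPM lines, against 29.7 to 161 CPM in RP lines, and 10.2 to 13.1 CPM with addback, against 29.5 to 39.4 CPM with empty vector. Within that sum Pdgfrb was called higher with addback (5.08 against 0.54 CPM with empty vector), and Col1a1 (0.63 against 4.99 CPM) and Dcn (5.70 against 28.6 CPM) lower. In the lines limma-trend called none of these 3 markers, while the authors' deposited table calls Dcn lower in RPM lines (log2 -1.46, FDR 0.0241). The part of these differences in the results below was not tested.

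The promoter windows of 4 genes are shown because the results turn on them: Tdrd1 and Piwil4, which moved most, Pld6, which moved the other way in the addback experiment, and Tdrkh, as a Tudor gene with a high level in every library. Each window holds 300 bases, 250 before and 50 after the RefSeq start, on the gene's strand, from RefSeq on GRCm38.p6, the assembly that the build mm10 of the files names. Windows were found for 9 of the 10 genes. RefSeq gives more than 1 window for Tdrd1, Piwil4, Tdrd7 and Pld6. For each gene only the window nearest to its GENCODE start was searched, so other starts are not covered. The Tdrd5 window lies 316 bp from that start. Capitals mark CACGTG (the E-box that MYC and MAX proteins bind), GCGGGA or its reverse complement TCCCGC (an E2F core) and AGGTGT or its reverse complement ACACCT (a T-box core, as in MGA). The windows lie at chr19:56825959-56826258 (plus strand, Tdrd1), chr9:14740623-14740922 (minus strand, Piwil4), chr11:59787608-59787907 (minus strand, Pld6) and chr3:94412994-94413293 (plus strand, Tdrkh).
Tdrd1: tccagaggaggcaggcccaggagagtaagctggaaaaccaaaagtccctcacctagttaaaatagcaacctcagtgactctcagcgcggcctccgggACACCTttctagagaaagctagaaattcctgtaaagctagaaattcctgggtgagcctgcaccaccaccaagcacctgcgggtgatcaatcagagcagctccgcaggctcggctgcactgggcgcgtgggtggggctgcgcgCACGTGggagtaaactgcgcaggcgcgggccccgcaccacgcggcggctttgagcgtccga
Piwil4: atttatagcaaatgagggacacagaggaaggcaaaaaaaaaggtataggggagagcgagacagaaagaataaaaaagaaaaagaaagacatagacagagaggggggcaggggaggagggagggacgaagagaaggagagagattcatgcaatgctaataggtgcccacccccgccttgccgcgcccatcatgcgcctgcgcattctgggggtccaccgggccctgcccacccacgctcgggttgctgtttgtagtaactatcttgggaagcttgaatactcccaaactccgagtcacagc
Pld6: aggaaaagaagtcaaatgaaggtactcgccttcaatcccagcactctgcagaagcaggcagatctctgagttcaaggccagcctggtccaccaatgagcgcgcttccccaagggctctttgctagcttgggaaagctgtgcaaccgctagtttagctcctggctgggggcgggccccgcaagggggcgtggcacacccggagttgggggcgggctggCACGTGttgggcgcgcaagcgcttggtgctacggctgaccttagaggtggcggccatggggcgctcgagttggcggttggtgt
Tdrkh: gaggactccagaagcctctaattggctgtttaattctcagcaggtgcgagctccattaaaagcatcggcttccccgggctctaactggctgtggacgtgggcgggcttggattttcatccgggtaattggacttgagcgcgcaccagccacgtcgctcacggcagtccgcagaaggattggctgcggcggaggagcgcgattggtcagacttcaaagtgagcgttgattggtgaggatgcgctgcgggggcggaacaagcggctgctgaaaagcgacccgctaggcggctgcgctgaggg

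The Tdrd1 window held a CACGTG at position -11 from the start and an AGGTGT on the other strand at position -153. Pld6 held a CACGTG at position -33. None of the searched letters was in the windows of Piwil4, Tdrkh or Tdrd7. Among the other genes, CACGTG was in the windows of Tdrd9, at positions -165 and -95, and Mael, at position -223, and GCGGGA was in those of Tdrd3, Tdrd5 and Mael. In all, 4 of the 9 windows held CACGTG, against 7.15% of 32851 windows of the same length in the RefSeq table. GCGGGA was in 3 of the 9, against 6562 of all 32851 windows, and AGGTGT in 1, against 13.7%. Both strands were searched, and the longer forms GGCGGGAA and AGGTGTGA, which contain GCGGGA and AGGTGT, were in none of the 9, against 2.19% and 1.28% of all windows. The ratio of observed to expected CpG was 0.733 for Tdrd1, 0.543 for Piwil4, 0.956 for Tdrkh, 0.633 for Pld6, 1.032 for Tdrd3 and 0.234 for Tdrd7, and its median over all windows was 0.384. These matches describe only the letters of the windows searched.

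Tdrd1 had the largest difference of the 8 listed genes between the lines. It encodes a Tudor scaffold of germ granules that binds methylated PIWI proteins, and lies at chr19:56826209-56870012 on the plus strand. It had 47.3, 78.0, 36.1 and 45.6 CPM in RPM replicates 1 to 4, against 0, 0, 0.122 and 4.71 CPM in RP replicates 1 to 4. As these are bulk libraries, fewer cells with a transcript and less of it per cell cannot be told apart. The groups did not overlap: the lowest RPM line lay well above the highest RP line, RP replicate 4, and in the 3 other RP lines 1 read was counted in all. The mean was 51.8 ± 18.2 CPM in RPM lines and 1.21 ± 2.34 CPM in RP lines (SD, n = 4 each). The difference was 4.99 on the scale of log2(CPM + 1), with a standard error of 0.58, and that scale understates changes from low levels. From pooled reads the ratio was 41.9, with an exact 95% interval of 30.8 to 58.6 that covers counting error only. Without RP replicate 4 the same ratio was 1281, with an interval of 230 to 50610, since it is then taken against 1 read. The difference on the log2 scale was 5.61 without RP replicate 4 and 5.02 without RPM replicate 1.

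In the addback experiment Tdrd1 was lower with Max. It had 26.7, 28.3 and 24.0 CPM in the 3 addback libraries, against 121, 121 and 126 CPM in the 3 empty vector libraries. No addback library reached the empty vector range, and the spread within each was small beside the gap. The mean was 26.3 ± 2.14 CPM with addback and 123 ± 3.23 CPM with empty vector (SD, n = 3 each), a log2 difference of -2.18 with a standard error of 0.09. The ratio from pooled reads was 0.215, with an exact 95% counting interval of 0.197 to 0.235. The listed gene nearest to Tdrd1, Ccdc186, 4019 bp away on the other strand, had 86.9 to 98.2 CPM in RPM lines, against 68.9 to 99.0 CPM in RP lines, and 76.6 to 108 CPM with addback, against 107 to 114 CPM with empty vector. The groups of Ccdc186 thus overlapped in both comparisons. Vwa2, 4237 bp away on the strand of Tdrd1 and listed for the addback experiment only, had 0 to 0.374 CPM with addback, against 0.71 to 1.99 CPM with empty vector, low levels that did not overlap and differed in the same direction as Tdrd1.

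**Figure D1:**
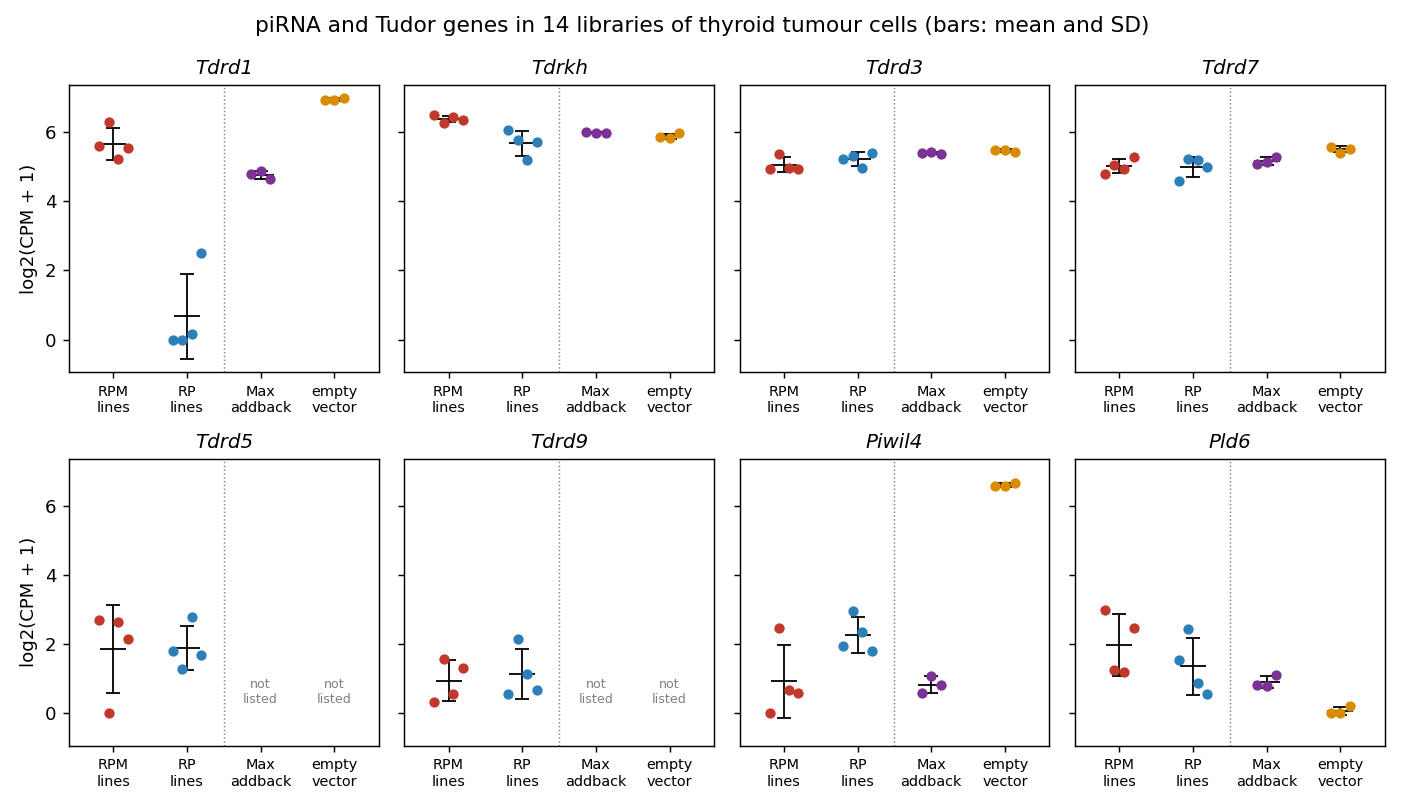
Levels of the 8 listed genes as log2(CPM + 1) on the vertical axis, 1 point a library, in RPM lines, RP lines, Max addback and empty vector; black bars are the mean and SD, and the 2 tables, split by the dotted line, were normalised separately. Tdrd1 is high in all 4 RPM lines (36.1 to 78.0 CPM) and low in RP lines (0 to 4.71 CPM), while Piwil4 is high in the empty vector libraries alone (94.9 to 101 CPM).

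Piwil4 encodes a nuclear PIWI protein that directs DNA methylation of transposons in fetal male germ cells of mice. It lies at chr9:14696230-14740733 on the minus strand. In the lines it was low: 0, 4.49, 0.592 and 0.495 CPM in RPM replicates 1 to 4, against 2.89, 6.85, 4.15 and 2.47 CPM in RP replicates 1 to 4. RPM replicate 2 lay within the range of the RP lines, so the groups overlapped, and the 3 other RPM lines lay below it. The mean was 1.39 ± 2.08 CPM in RPM lines and 4.09 ± 1.98 CPM in RP lines (SD, n = 4 each), a log2 difference of -1.35 with a standard error of 0.53. Its sign is opposite to that of Tdrd1 in the same lines.

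In the addback experiment Piwil4 had the largest difference of the 6 listed genes. It had 0.508, 1.12 and 0.771 CPM in the addback libraries, against 94.9, 94.9 and 101 CPM in the empty vector libraries. Every addback library lay far below the empty vector range, and together they held 19 reads in all, against 1994 with empty vector. The mean was 0.80 ± 0.31 CPM with addback and 97.0 ± 3.56 CPM with empty vector (SD, n = 3 each), a log2 difference of -5.78 with a standard error of 0.14. The ratio from pooled reads was 0.0083, with an exact 95% counting interval of 0.005 to 0.013. An antisense gene, Gm10706, shares 137 bp of exon with Piwil4 and had 1, 0 and 0 reads with addback, against 42, 35 and 33 reads with empty vector. No source used here says whether counting used strand, and in the shared stretch this pair cannot be told apart. The nearest listed neighbour on the same strand, Fut4, 7587 bp away, had 3.18 to 4.24 CPM with addback, against 0.995 to 1.68 CPM with empty vector, a difference of the other sign. Farther off, at 38885 bp, Ankrd49 had 19.7 to 22.5 CPM with addback, against 36.6 to 38.2 CPM with empty vector.

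Piwil4 in the empty vector cells was also unlike Piwil4 in the untransduced line of the same name. To set the tables beside each other, all 14 libraries were put on 1 scale from the genes listed in both, a step chosen after seeing the data that moved no level of 10 reads or more of these genes by over 2.17%. On that scale Piwil4 was 96.8 CPM with empty vector, against 4.46 CPM in RPM replicate 2, a ratio of 21.7. With addback it was 0.796 CPM, a ratio of 0.178 to the same library. Tdrd1 moved less between these cells: 123 CPM with empty vector, against 77.6 CPM in RPM replicate 2, a ratio of 1.58, and 26.2 CPM with addback, a ratio of 0.338. Its level with addback lay below all 4 RPM lines (36.4 to 77.6 CPM) and above all 4 RP lines (0 to 4.74 CPM). The same ratio of empty vector to RPM replicate 2 was 1.07 for Tdrd3, 1.37 for Tdrd7, 0.765 for Tdrkh and 0.037 for Pld6. The untransduced line is 1 library, so none of these ratios has a replicate check. The addback cells also lack the Ddx3y RNA of that library. Culture, transduction, sequencing run and any other difference between the cells cannot be told apart.

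**Figure D2:**
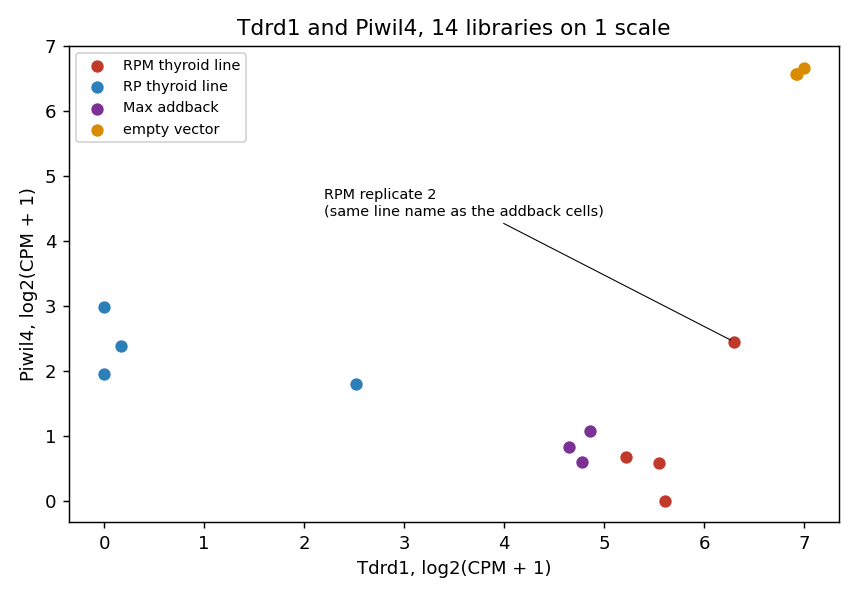
Tdrd1 (horizontal axis) and Piwil4 (vertical axis) as log2(CPM + 1) in the 14 libraries on the common scale, 1 point a library, coloured by group. The empty vector libraries are alone at high values of both genes, and RPM replicate 2, at 77.6 CPM of Tdrd1, has 4.46 CPM of Piwil4.

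The broadly expressed Tudor genes had at least 23.0 CPM in every library and differed less between groups. Tdrkh, at chr3:94413273-94434668 on the plus strand, encodes a mitochondrial Tudor protein that takes part in piRNA trimming. It had 88.7, 76.5, 85.6 and 80.3 CPM in RPM replicates 1 to 4, against 66.4, 53.4, 35.6 and 51.3 CPM in RP replicates 1 to 4. The groups did not overlap, and the mean was 82.8 ± 5.42 CPM in RPM lines and 51.7 ± 12.6 CPM in RP lines (SD, n = 4 each), a log2 difference of 0.70 with a standard error of 0.18. With addback it had 63.2, 62.3 and 62.3 CPM, against 57.6, 55.8 and 61.5 CPM with empty vector. These groups did not overlap either, but the log2 difference was 0.10 with a standard error of 0.08, and the gap between the nearest libraries was smaller than the spread of the empty vector libraries. Oaz3, a gene on the other strand that shares 2255 bp of exon with Tdrkh, had 0.619 to 1.37 CPM in RPM lines, against 0.361 to 1.18 CPM in RP lines, far below Tdrkh.

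Tdrd7, at chr4:45965334-46034761 on the plus strand, encodes a Tudor protein of RNA granules that is known from the lens and from spermatids. It had 26.9, 32.5, 29.5 and 38.1 CPM in RPM replicates 1 to 4, against 23.0, 36.2, 35.6 and 30.7 CPM in RP replicates 1 to 4. The groups overlapped, with a log2 difference of 0.03 and a standard error of 0.20. With addback it had 32.9, 34.4 and 38.2 CPM, against 46.9, 41.5 and 45.2 CPM with empty vector. These groups did not overlap, with means of 35.2 ± 2.71 CPM with addback and 44.5 ± 2.76 CPM with empty vector (SD, n = 3 each) and a log2 difference of -0.33 with a standard error of 0.10.

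Tdrd3, at chr14:87416639-87545504 on the plus strand, encodes a Tudor protein that partners topoisomerase 3 beta. It had 29.5, 40.6, 30.3 and 29.7 CPM in RPM replicates 1 to 4, against 36.2, 38.5, 30.0 and 41.6 CPM in RP replicates 1 to 4. The groups overlapped, and RPM replicate 2 stood above the 3 other RPM lines. The log2 difference was -0.17 with a standard error of 0.17. With addback it had 41.3, 41.7 and 40.4 CPM, against 43.4, 44.2 and 42.0 CPM with empty vector, a log2 difference of -0.07 with a standard error of 0.08. Of the 6 genes listed in both tables, Tdrd3 had the smallest absolute difference in the addback experiment.

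Tdrd5 and Tdrd9, listed for the lines only, were low. Tdrd5, at chr1:156255296-156303664 on the minus strand, encodes a Tudor protein of germ granules. It had 5.49, 0, 5.21 and 3.47 CPM in RPM replicates 1 to 4, against 2.53, 1.44, 5.85 and 2.24 CPM in RP replicates 1 to 4. RPM replicate 2, the line with the most Tdrd1, had no read of it, and the groups overlapped, with a log2 difference of -0.02 and a standard error of 0.62. Tdrd9, a Tudor helicase gene at chr12:111971559-112068854 on the plus strand, had 0.255, 1.99, 0.473 and 1.49 CPM in RPM replicates 1 to 4, against 0.481, 3.49, 1.22 and 0.589 CPM in RP replicates 1 to 4. These groups overlapped too, with a log2 difference of -0.19 and a standard error of 0.43.

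Pld6 encodes the mouse form of Zucchini, the mitochondrial endonuclease that cuts piRNA precursors, and lies at chr11:59783897-59787645 on the minus strand. It had 6.89, 1.37, 1.30 and 4.58 CPM in RPM replicates 1 to 4, against 1.93, 4.45, 0.853 and 0.471 CPM in RP replicates 1 to 4. The groups overlapped, with a log2 difference of 0.62 and a standard error of 0.54, and leaving out 1 line moved it between 0.28 (without RPM replicate 1) and 0.98 (without RP replicate 2). With addback it had 0.763, 0.747 and 1.16 CPM, against 0, 0 and 0.153 CPM with empty vector. All 3 addback libraries lay above the empty vector range, but the values rest on 21 reads with addback, against 1 read with empty vector, a ratio of 18.3 with an exact 95% counting interval of 2.94 to 755. On the log2(CPM + 1) scale this was 0.84 with a standard error of 0.18, the sign opposite to that of Tdrd1 and Piwil4.

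**Figure D3:**
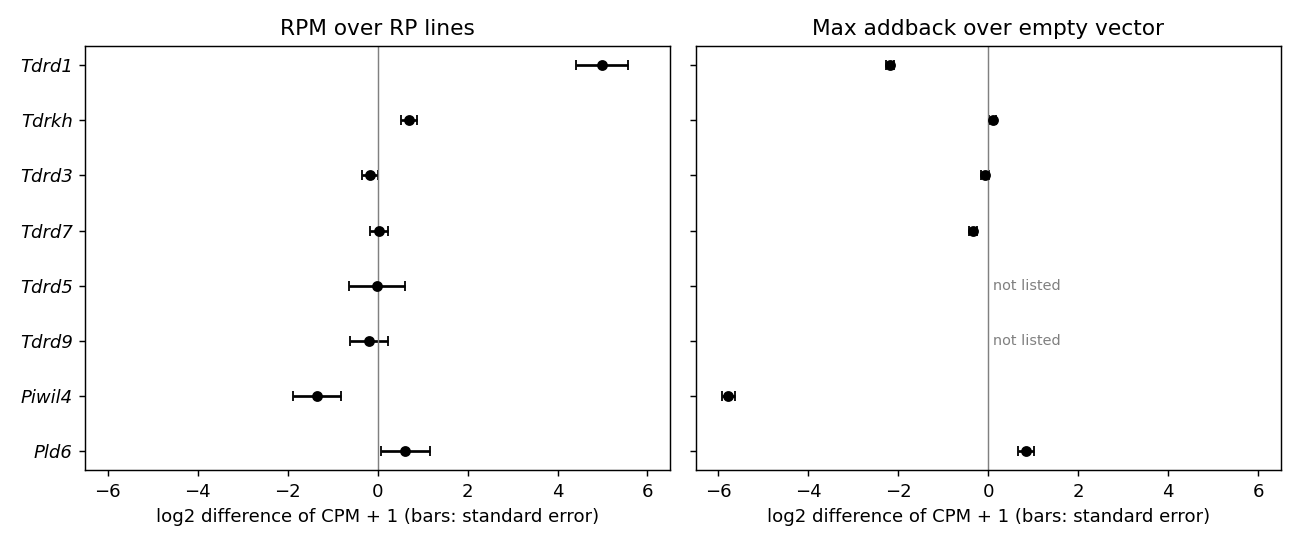
Differences of the 8 listed genes on the log2(CPM + 1) scale (horizontal axis) for RPM over RP lines and for Max addback over empty vector; points are the fitted difference and bars its standard error. Tdrd1 stands at 4.99 in the lines and at -2.18 in the addback experiment, and Piwil4 at -1.35 and -5.78.

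Across all listed genes, limma-trend called 0.334% of 14360 in the lines and 53.2% of 14056 in the addback experiment at a Benjamini-Hochberg adjusted p under 0.05. In the lines 1 of the 8 listed genes was called, Tdrd1, which was higher. In the addback experiment 4 of 6 were called: Pld6 higher, and Tdrd1, Piwil4 and Tdrd7 lower. The call of Tdrd1 in the lines was lost when any of RPM replicates 2, 3 or 4 or RP replicates 1, 2 or 3 was left out, with log2 differences of 4.77 to 5.14, and with edgeR on the recovered reads. The call of Tdrd7 was lost when empty vector replicate 1 or 3 was left out. The groups did not overlap for 2 of the 8 genes in the lines, both higher, against 9.37% of all genes in either direction. In the addback experiment they did not overlap for 6 of 6, 2 higher and 4 lower, against 61.9% of all genes. The median log2 difference of the 8 genes was 0.003 in the lines, against -0.005 over all genes. That of the 6 genes was -0.20 with addback, against -0.002 over all genes. Since these differences chose the genes, nothing is read from these counts. In the authors' deposited table Tdrd1 is called higher in RPM lines, and with addback Tdrd1 and Piwil4 are called lower and Pld6 higher. Tdrd7 is not called there, though the authors give it an FDR of 0.013 at a log2 difference of -0.341. Their call thus asks for more than an FDR under 0.05, unlike the limma call.

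Per gene length, the order of the levels differed between groups. In RPM lines Tdrkh had the highest mean, at 13.5 ± 0.88 RPKM, followed by Tdrd1 at 9.51 ± 3.34, Tdrd7 at 8.03 ± 1.22 and Tdrd3 at 5.36 ± 0.89 RPKM (SD, n = 4 each). Tdrd1 did not differ beyond the spread from Tdrkh or from Tdrd7. In RPM replicate 2 Tdrd1 stood above Tdrkh, at 14.3 against 12.5 RPKM. Pld6 was at 2.01 ± 1.54 RPKM there, and Tdrd5, Piwil4 and Tdrd9 were at 0.51, 0.26 and 0.19 RPKM. In RP lines Tdrkh, at 8.42 ± 2.06 RPKM, Tdrd7, at 7.93 ± 1.54 RPKM, and Tdrd3, at 6.02 ± 0.81 RPKM, did not differ beyond their spread. Below them in RP lines came Pld6 at 1.10, Piwil4 at 0.76, Tdrd5 at 0.43, Tdrd9 at 0.27 and Tdrd1 at 0.22 ± 0.43 RPKM, low levels whose neighbours did not differ beyond their spread. With addback the order was Tdrkh at 10.2 ± 0.08, Tdrd7 at 8.88 ± 0.68, Tdrd3 at 6.77 ± 0.12 and Tdrd1 at 4.84 ± 0.39 RPKM, with Pld6 and Piwil4 at 0.51 and 0.15 RPKM. With empty vector Tdrd1 led at 22.5 ± 0.59 RPKM, then Piwil4 at 18.0 ± 0.66, Tdrd7 at 11.2 ± 0.70, Tdrkh at 9.50 ± 0.47 and Tdrd3 at 7.12 ± 0.18 RPKM (SD, n = 3 each), and Pld6 was at 0.03 RPKM.

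**Figure D4:**
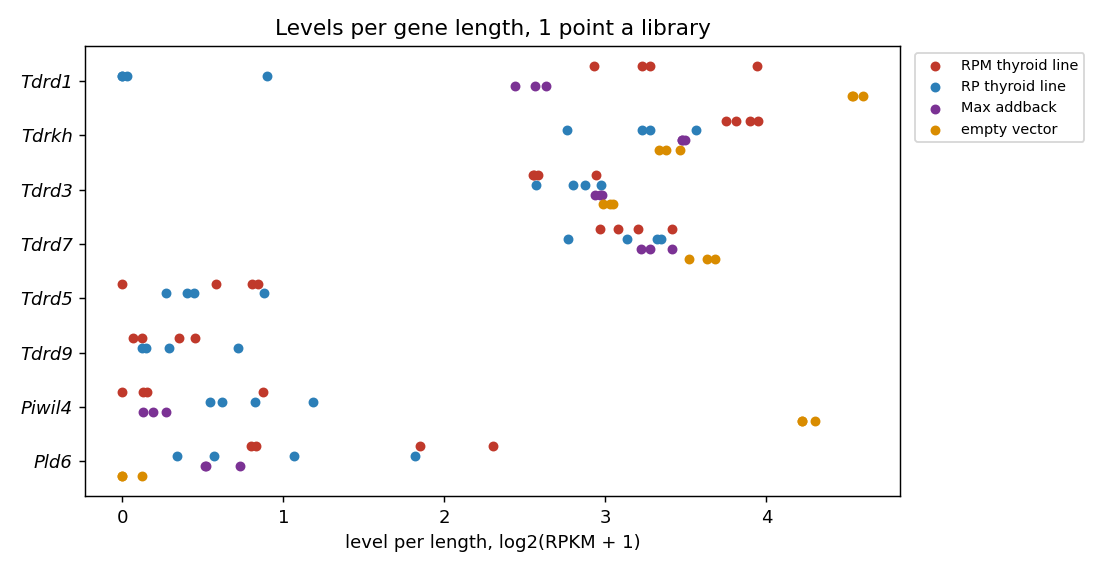
Levels per gene length as log2(RPKM + 1) on the horizontal axis, 1 point a library, coloured by group, for the 8 listed genes. Over all libraries Tdrd3 runs from 4.85 to 7.28, Tdrd7 from 5.81 to 11.8 and Tdrkh from 5.80 to 14.4 RPKM. Tdrkh is higher in RPM than in RP lines. Tdrd1 goes as low as 0 RPKM in RP lines. Piwil4 leaves the low range only with empty vector, where it averages 18.0 RPKM.

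The rest of the piRNA pathway was read from a list of 24 other genes, of which the table of the lines holds 10 and that of the addback experiment 6. Those not listed in either table include Piwil1, the helicase genes Ddx4 and Mov10l1, the Tudor genes Tdrd6, Tdrd10, Tdrd15 and Rnf17, and Asz1, Gtsf1, Fkbp6, Stk31, Spocd1, Dnmt3l and Tex19.1. Between RPM and RP lines 0 of 10 were called by limma-trend, and 0 by edgeR and by DESeq2. At an unadjusted p under 0.05 limma-trend had 2284 of all 14360 genes and 1 of the 10, Mybl1, which encodes A-MYB, the activator of pachytene piRNA genes, with means of 56.7 CPM in RPM lines and 37.9 CPM in RP lines. The median log2 difference of the 10 was 0.27, against -0.005 over all genes. Tex15, a nuclear factor of piRNA-directed methylation, had 70.1, 10.97, 52.2 and 66.8 CPM in RPM replicates 1 to 4, against 59.3, 11.7, 31.7 and 30.4 CPM in RP replicates 1 to 4. Its groups overlapped. Gpat2, a mitochondrial piRNA factor, had 36.5 CPM in RPM replicate 3 and 0.128 to 0.619 CPM in the other RPM lines, against 0.241 to 5.30 CPM in RP lines, and its log2 difference of 0.37 turned to -0.83 without RPM replicate 3. Mov10, a helicase gene related to Mov10l1, averaged 11.6 CPM in RPM lines and 8.18 CPM in RP lines, and Exd1, which encodes a PIWI partner, 4.29 CPM in RPM lines and 8.15 CPM in RP lines. Henmt1, the methyltransferase of piRNA 3′ ends, Pnldc1, the trimming exonuclease, Tdrd12, Btbd18 and Morc1 had means of 0.974 to 2.97 CPM in RPM lines and 0.63 to 1.99 CPM in RP lines.

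With addback 1 of the 6 listed pathway genes rose and 1 fell by limma-trend, while 53.2% of all genes were called. Mybl1 had 78.9, 79.6 and 62.6 CPM with addback, against 97.5, 110 and 100 CPM with empty vector, a log2 difference of -0.48 with a standard error of 0.10 and a limma adjusted p of 0.00344. It was lower in 3 of 3 addback libraries, and the groups did not overlap. Exd1 averaged 1.61 CPM with addback and 0.916 CPM with empty vector, from 38 and 19 reads, a log2 difference of 0.45 with a standard error of 0.17 and a limma adjusted p of 0.0485. That call was lost in 12 of 13 alternatives, with adjusted p up to 0.244. Limma-trend did not call Tex15, Mov10, Pnldc1 and Btbd18, with log2 differences of 0.58, 0.47, 0.22 and -0.25. Tex15 had 16.9, 19.3 and 8.10 CPM with addback, against 7.57, 9.38 and 10.2 CPM with empty vector, and without addback replicate 3, the low one, its log2 difference was 0.93 with a limma adjusted p of 3.24e-05. DESeq2 on all 6 libraries also called Tex15 (log2 0.71, adjusted p 0.0262), and the authors' deposited table calls it higher. Mov10 was called by limma-trend without empty vector replicate 3 (adjusted p 0.0318), without addback replicate 2 (adjusted p 0.0266) and with a replicate block (adjusted p 0.0323). The median of the 6 was 0.34, against -0.002 over all genes.

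**Figure D5:**
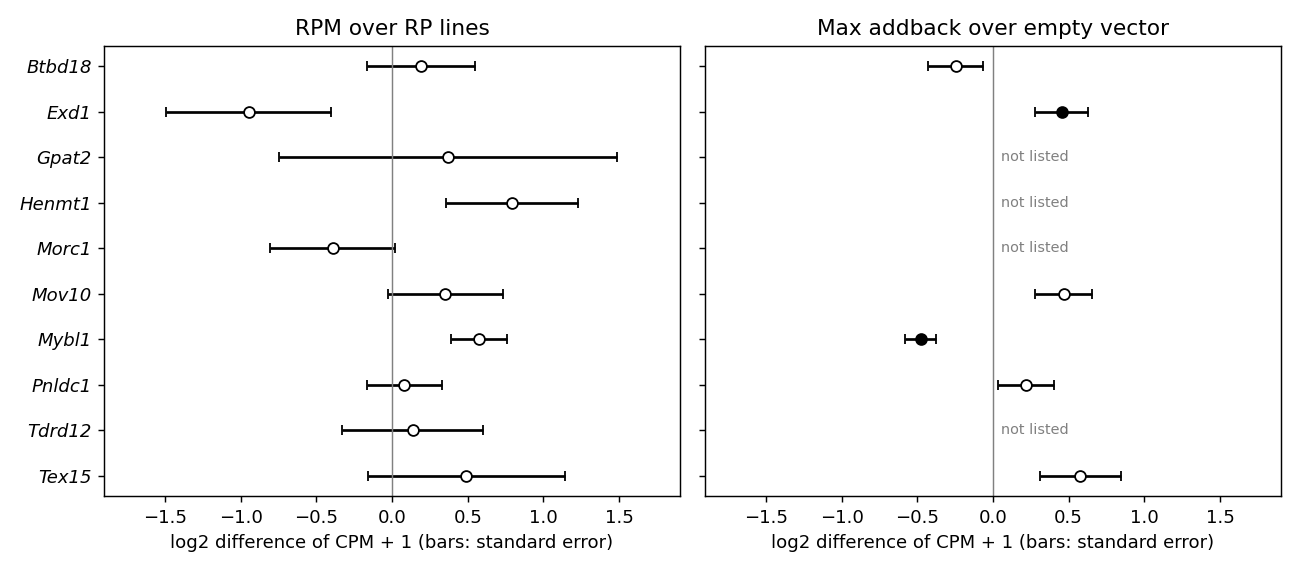
Differences of the other listed piRNA pathway genes on the log2(CPM + 1) scale (horizontal axis) for RPM over RP lines and Max addback over empty vector; bars are standard errors and filled points are limma calls. No gene is called in the lines, and with addback Mybl1 is lower (-0.48) and Exd1 higher (0.45).

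Tudor genes outside the piRNA pathway were present throughout, all 19 listed in both tables. None of the 19 was called between RPM and RP lines by limma-trend, while 5 had an unadjusted p under 0.05, as had 2284 of all 14360 genes. With addback 2 rose and 7 fell, 9 of 19 where 53.2% of all genes were called, with a median log2 difference of -0.06. Those with the largest changes were Phf19, a Polycomb-like protein gene, at 40.3 CPM with addback against 69.4 CPM with empty vector (log2 -0.77), Lbr, the lamin B receptor gene (log2 -0.50), Akap1, a mitochondrial anchor gene (log2 -0.47), Kdm4a, a histone demethylase gene (log2 -0.45), and Phf20l1, a methyl-lysine reader gene, which was higher (log2 0.42). Their limma adjusted p-values were 7.61e-05, 0.000686, 0.000347, 0.00247 and 0.0126, and the call of Phf20l1 was lost without empty vector replicate 3 or addback replicate 2.

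Arginine methylation, which makes the marks that several piRNA Tudor proteins bind, was read from 8 genes. Wdr77, which encodes the PRMT5 cofactor MEP50, was the 1 gene called in the lines, with 47.1, 52.6, 52.1 and 51.9 CPM in RPM replicates 1 to 4, against 27.1, 24.4, 26.9 and 30.9 CPM in RP replicates 1 to 4. The groups did not overlap, and the log2 difference was 0.88 with a standard error of 0.13 and a limma adjusted p of 0.0438. That call was lost in 9 of 15 alternatives, among them the removal of any line but RPM replicate 1, with log2 differences of 0.79 to 0.94 over all 15. The enzyme gene Prmt5 itself was not called, with 120 CPM in RPM lines and 127 CPM in RP lines. With addback 1 of the 8 was called, where 53.2% of all genes were: Prmt7, another arginine methyltransferase gene, fell to 48.3 CPM, against 63.1 CPM with empty vector (log2 -0.38, limma adjusted p 0.00362).

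The genes of PRC1.6, all 13 listed, had no limma call between RPM and RP lines, and 3 had an unadjusted p under 0.05, as had 2284 of all 14360 genes. With addback 1 rose and 5 fell, 6 of 13 where 53.2% of all genes were called. E2f6, a DNA-binding subunit, averaged 91.3 CPM with addback and 183 CPM with empty vector (log2 -0.99, SE 0.07, limma adjusted p 1.59e-06). Mga, which encodes a MAX partner and scaffold of the complex, averaged 214 CPM with addback and 347 CPM with empty vector (log2 -0.74, SE 0.19, limma adjusted p 0.00714). Without addback replicate 3 the log2 difference of Mga was -0.47, still called. Rybp, Pcgf6 and Cbx3 were also lower, with log2 differences of -0.63, -0.40 and -0.38. The median of the 13 was -0.03, against -0.002 over all genes.

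The patterns most like Tdrd1 were looked for among the 12916 genes listed in both tables with a mean of at least 1 CPM in each, by the smaller of the Pearson correlations over the 8 lines and over the 6 addback libraries. The closest were Gm4969 (0.986 and 0.998), Stag3, a meiotic cohesin gene (0.974 and 0.989), Dnajb9 (0.975 and 0.973), Rcl1 (0.968 and 0.984) and Pes1 (0.967 and 0.968). Gm4969 averaged 156 CPM in RPM lines and 6.19 CPM in RP lines, and 57.8 CPM with addback and 295 CPM with empty vector. Stag3 averaged 313 CPM in RPM lines and 12.7 CPM in RP lines, and 256 CPM with addback and 490 CPM with empty vector. In RP lines Gm4969 ran from 0 to 24.3 CPM and Stag3 from 0 to 46.6 CPM, so both RP means rest mostly on the highest line. Dnajb9, a chaperone gene, and Pes1 and Rcl1, genes of ribosome assembly, ran over a narrower range, such as 78.8 CPM of Pes1 in RPM lines and 58.3 CPM in RP lines.

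Closest to Piwil4 were Gper1 (0.955 and 0.987), Apcdd1 (0.953 and 0.985), Pld1 (0.924 and 0.945), Lrig1 (0.924 and 0.920) and Map6 (0.918 and 0.964). Gper1, a receptor gene, averaged 5.20 CPM in RPM lines and 16.7 CPM in RP lines, and 6.24 CPM with addback and 15.8 CPM with empty vector. No gene of the other piRNA list was among these 10 genes. Points of a correlation share their group, and each is given as a description.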

How the data were processed

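Mouse RNA-seq libraries of cultured thyroid tumour cells were analysed. Per the submitters' processing notes, bcl2fastq 1.8.4, TopHat2 2.1.0, HTSeq 0.6.1 and edgeR were used with mm10; annotation, filter and strand setting are given in no source used here. The 2 tables, normalised separately, hold CPM and RPKM values: per the file headers, CPM is a signal after TMM normalisation, and RPKM values are scaled by length as well. The authors' deposited tables also hold log2 fold changes and mean log2 levels, p-values and FDR, and a score of -1, 0 or 1 as call.

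Dividing CPM by the value of 1 read gave whole reads within 0.01 for 100% of values, with totals of 6738614 to 8498396; intervals and floors cover counting error only. Genes were tested with limma 3.58.1 (trend) on log2(CPM + 1) over all listed genes, per comparison, without covariates, two-sided, with Benjamini-Hochberg adjusted p under 0.05. The design foresaw edgeR for raw counts; the tables hold normalised values. edgeR 4.0.16 and DESeq2 1.42.0 on recovered reads, pseudocounts of 0.25 and 5, a minimum mean of 1 CPM, DESeq2 size factors, a replicate block and leaving out each library were alternatives. The scripts were tested on simulated data. Identifiers were matched to GENCODE vM21 for coordinates (14354 and 14050 found).

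The members and gene lists were chosen with earlier results of these data known. Named are all members, all listed pathway genes, up to 5 called genes with the largest change per further list and comparison, the 5 genes most like Tdrd1 and Piwil4, and Max. Neighbours, antisense genes, Prmt5, single marker genes, the Y-linked genes and Xist were added after their values were seen. Of the C cell markers, 1 is not reported here. Replicates differed beyond sampling noise, and none were merged. Chi-square per degree of freedom was 33.2 to 77.9 between RPM lines, 20.7 to 57.4 between RP lines and 1.76 to 1.90 between empty vector libraries. Addback replicate 3 stood apart, at 15.5 and 13.2 against addback replicates 1 and 2, which gave 1.835 between them. Without it limma-trend called 9035 genes in the addback experiment, against 7478 with it.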

Additional observations from a re-analysis of the deposited data

Results flagged for a closer look

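Among 36 sets of 4 lines (each listed member or other pathway gene in RPM or RP lines), 5 had a library far from the rest by Dixon's test on log2(CPM + 1), which chance flags in about 1 of 20 sets. Tdrd1 in RP replicate 4 was 4.71 CPM, with 0 to 0.122 CPM in the other RP lines. Tdrd3 in RPM replicate 2 was 40.6 CPM, with 29.5 to 30.3 CPM in the other RPM lines. Tex15 in RPM replicate 2 was 10.97 CPM, with 52.2 to 70.1 CPM in the others. Gpat2 in RPM replicate 3 was 36.5 CPM, with 0.128 to 0.619 CPM in the others. Btbd18 in RP replicate 2 was 0.12 CPM, with 0.732 to 0.842 CPM in the other RP lines. That is the value of 1 read, near the limit of detection, and the 4 RP lines held 21 reads of Btbd18 in all.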

How the results depend on the processing

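In the lines, the number of members called was 1, against 2 with DESeq2 (Tdrd1 and Tdrkh), 0 with edgeR, 0 with the replicate block and 0 to 1 when a library was left out. The number of other pathway genes called there was 0 in every alternative. In the addback experiment, the number of other pathway genes called was 2, against 1 with edgeR, 1 with a pseudocount of 0.25, 1 with a pseudocount of 5, 1 with the minimum of 1 CPM and 1 to 2 when a library was left out, each loss being Exd1. Members called there were 3 to 4, and Pld6 was below the minimum of 1 CPM. Genes called in the lines were 48, against 3 with edgeR, 658 with DESeq2, 0 with the block and 0 to 261 when a library was left out. Same-numbered libraries of the 2 groups correlated at 0.011 to 0.406 in the lines and 0.02 to 0.081 in the addback experiment. The best match had the same number for RPM replicates 1 and 4 and for addback replicates 2 and 3, and another number for the rest. The check thus does not settle whether the numbers pair the libraries. With the replicate block limma-trend called 4 members in the addback experiment, and Mov10 (adjusted p 0.0323) in place of Exd1. The log2 difference of Tdrd1 in the lines ranged from 3.21 to 6.42 with the pseudocount, and that of Pld6 with addback from 0.22 to 4.09 over all alternatives. Uncalled genes near 0 in the lines changed sign: Tdrd5 to 0.23 with DESeq2, 0.23 with edgeR and 0.063 with a pseudocount of 5. With a library left out, Tdrd5 ranged from -0.30 to 0.60, Tdrd7 from -0.11 to 0.10, Tdrd9 from -0.40 to 0.15, Btbd18 from -0.068 to 0.48, Gpat2 from -0.83 to 0.86, Pnldc1 from -0.069 to 0.18 and Tdrd12 from -0.15 to 0.47. The cause was not tested. Depth limits Pld6, Tdrd9, Btbd18 and, outside the empty vector cells, Piwil4.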
